A study of Mus musculus with 24 samples.

Results

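The genes described here encode the collagens of the heart and the proteins that build, bind, cut and remodel its extracellular matrix. They were listed by name, not by a rule on measured values, and matched by gene symbol. The list was chosen with earlier results of these data known. Of 51 listed genes, 50 were among the 10393 genes measured at 16 h and 49 among the 7723 genes measured at 72 h. Tnc, the matricellular protein tenascin C, was not analysed here at either time, and Thbs4 was not analysed at 72 h. The hearts came from wild-type mice, and the groups were doxorubicin at 25 mg/kg together with hesperitin at 10 mg/kg per day (DOXH), doxorubicin at 25 mg/kg alone (DOX), hesperitin at 10 mg/kg per day alone (H) and vehicle (V). Doxorubicin is an anthracycline used in chemotherapy that can injure the heart, and hesperitin is a flavanone of citrus fruit. Each group held 3 libraries: DOXH, DOX, H and V at 16 h, and DOX and V at 72 h. The age and sex of the mice are not in the labels, which also do not say that the samples of a group came from separate animals. The p-values then reflect only how far these samples lie apart, which may be technical.

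The matrix of the heart is laid down largely by fibroblasts. Fibrillar collagens I, III and V form the cables between muscle bundles. Proteoglycans and elastic fibres fill and stretch the space between them, and laminins, collagen IV, nidogen and perlecan form the basement membrane that wraps each cardiomyocyte and capillary. Matricellular proteins signal to cells without forming fibres, lysyl oxidases cross-link collagen and elastin, matrix metalloproteinases cut the matrix under the control of tissue inhibitors (TIMPs), and transforming growth factor beta (TGF-beta), stored in the matrix by latent binding proteins, drives matrix synthesis in injured hearts.

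Levels are given as CPM, counts scaled to library size with TMM factors within each time, and each time was tested apart. Libraries held 10285599 to 10591384 counts in DOX, 9255651 to 10502391 in DOXH, 17664060 to 19869050 in H and 10337722 to 11074450 in V at 16 h, and 16607805 to 19279348 in DOX and 18328546 to 20587578 in V at 72 h. The tissue carried its defining markers, summed here over 15 cardiomyocyte genes of the sarcomere, calcium cycling and creatine kinase. The summed level was 39810 to 41844 CPM in DOX and 69063 to 78517 CPM in V at 16 h. At 72 h it was 23835 to 28616 CPM in DOX and 56896 to 67735 CPM in V. Of these 15 cardiomyocyte genes, 15 fell with doxorubicin at 16 h and 12 at 72 h. Of the fibroblast markers, 0 of 14 passed the test at 16 h (3 at an unadjusted p under 0.05), with a summed level of 1513 to 1821 CPM in DOX and 1299.5 to 1649.6 CPM in V. Of the 15 fibroblast markers listed, 4 are also on other lists given here, and no cell type marker measured was at 0 in any library. At 72 h, 6 of 11 fibroblast markers rose and 1 fell, with a summed level of 1088 to 1574 CPM in DOX and 924 to 1224 CPM in V. In whole tissue, fewer cells of a type and less RNA per cell cannot be told apart, and since CPM is a share of the library, the part of falling cardiomyocyte transcripts in a rise of another gene was not tested.

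Doxorubicin moved matrix genes in both directions, with no common shift. At 16 h, 5 of 50 rose and 7 fell in DOX against V, a share of 24% against 32.3% of all genes tested (15.6% rose and 16.6% fell). At 72 h, 13 of 49 rose and 12 fell, 51% against 53.7% of all genes (26.5% rose and 27.2% fell). The share was below that of all genes at 16 h and close to it at 72 h. Their median log2 fold change was 0.04 at 16 h and 0.10 at 72 h, against 0.02 and 0.01 for all genes. Calls are an adjusted p under 0.05 in edgeR's quasi-likelihood test, adjusted over all genes. The libraries of DOX and V did not overlap for 20 of 50 matrix genes at 16 h (40%, against 56.4% of all genes) and for 27 of 49 at 72 h (55.1%, against 63.5%). By class, the basement membrane genes that were called all fell (3 of 11 at 16 h and 5 of 11 at 72 h), while the enzymes, inhibitors and collagen chaperone gave 3 rises of 10 at 16 h and 6 rises and 1 fall of 10 at 72 h. With 1 library left out, the 12 calls at 16 h became 7 without DOX 1, 5 without V 1, 7 without V 2 and 6 without V 3, and 11 and 10 without DOX 2 and DOX 3. They became 20 of 50 when the other 16 h groups were left out of the fit, where the calls over all genes went from 3352 to 4571 of 10393. At 72 h the 25 calls became 20 to 28 with 1 library left out.

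**Figure D1:**
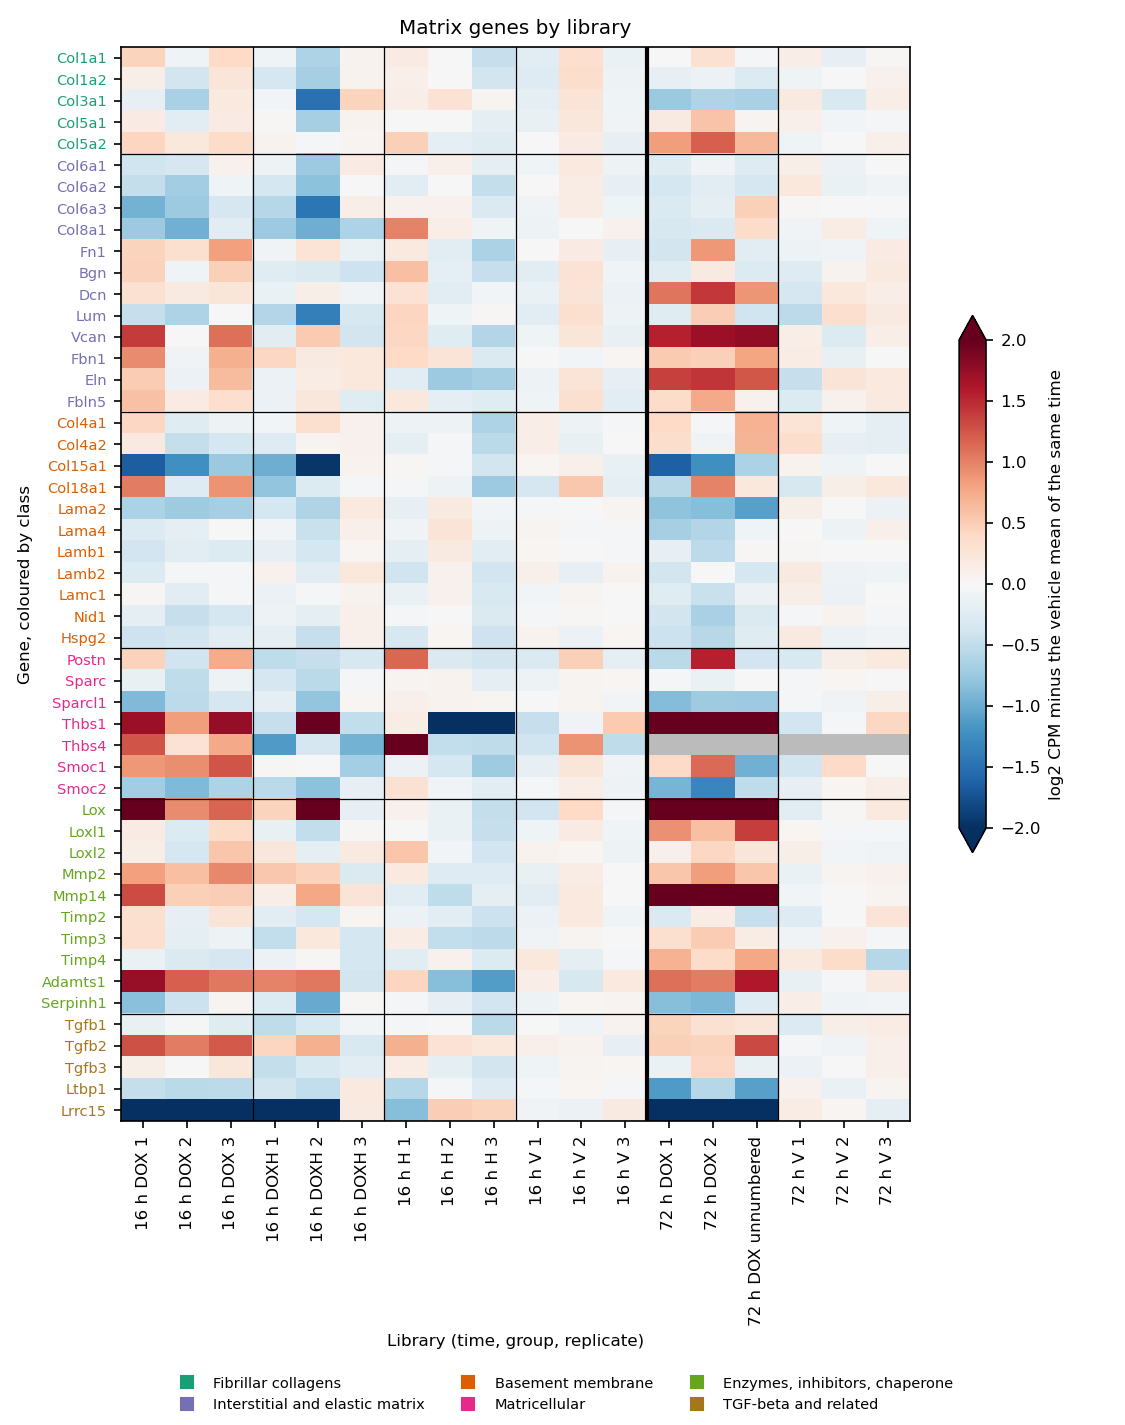
Level of each matrix gene in each library, as the log2 difference from the mean log2 level of the vehicle libraries of the same time, with genes in rows by class and libraries in columns. Colours end at 2 in either direction and grey marks Thbs4, which was not analysed at 72 h; the rises of Thbs1, Lox and Mmp14 and the fall of Lrrc15 stand out in the DOX columns, and DOXH 3 resembles the vehicle columns more than DOXH 2 does.

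**Figure D2:**
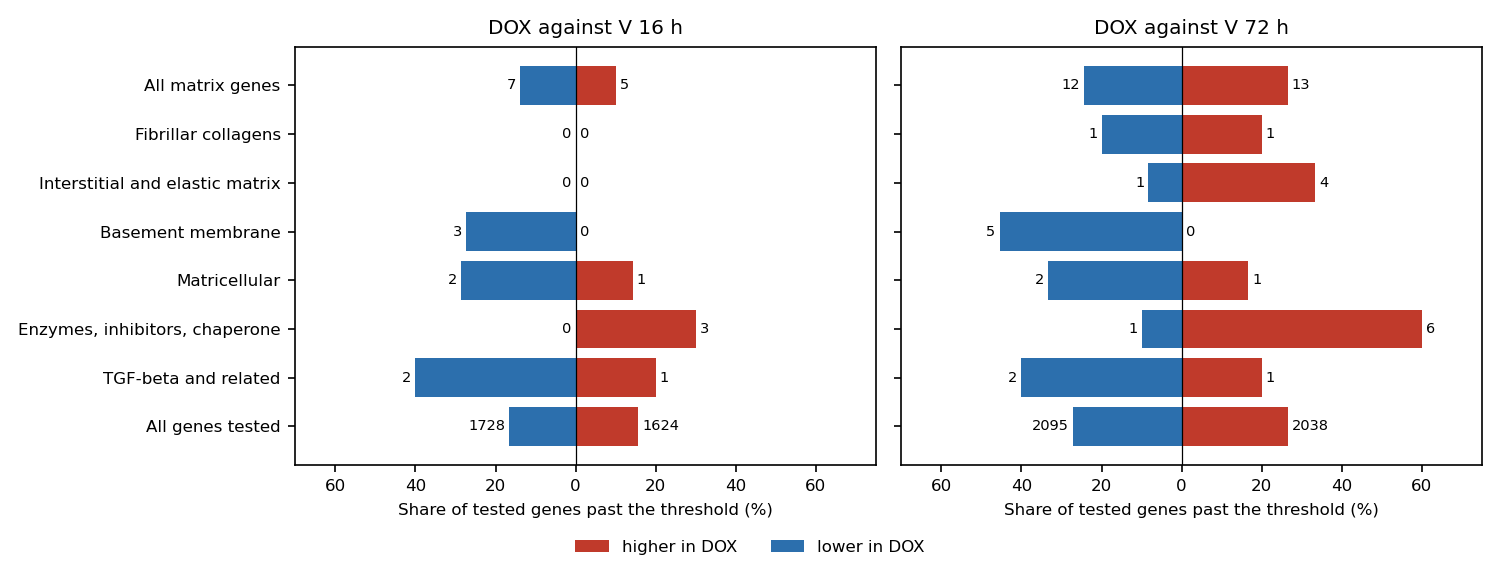
Percent of genes that rose (red, to the right) and fell (blue, to the left) in DOX against V at 16 h and 72 h (edgeR, adjusted p under 0.05), per class of matrix gene, for all matrix genes and for all genes tested, with counts beside the bars. Among basement membrane genes there are falls and no rises, and 6 of 10 enzymes, inhibitors and the chaperone rose at 72 h.

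The main fibrillar collagens did not pass the test with doxorubicin at 16 h, and at 72 h they split. At 16 h, 0 of 5 fibrillar collagen genes were called by edgeR, against 32.3% of all genes. Of the 5, 0 had an unadjusted p under 0.05, and DESeq2 and limma voom called 0. Col5a2 passed in edgeR when DOX and V alone were fitted (adjusted p = 0.0274). Col1a1, a chain of collagen I, read 66.2, 45.9 and 64.1 CPM in DOX and 41.8, 61.5 and 44.4 CPM in V at 16 h, and 24.1, 29.7 and 23.5 CPM in DOX and 26.3, 21.4 and 24.4 CPM in V at 72 h. The groups overlapped at both times, with log2 fold changes of 0.25 ± 0.22 (SE, adjusted p = 0.401) and 0.10 ± 0.12 (adjusted p = 0.495). Col3a1, which encodes the collagen of the more compliant fibres, read 88.3, 62.7 and 113 CPM in DOX and 87.5, 118 and 93.2 CPM in V at 16 h. By 72 h it read 33.8, 37.1 and 35.9 CPM in DOX, against 63.8, 45.5 and 61.6 CPM in V. Every DOX library at 72 h lay below every V library, and Col3a1 fell by 0.68 ± 0.12 on the log2 scale (SE, adjusted p = 0.00182). Col5a2, a chain of collagen V, which nucleates and limits the width of collagen I fibrils, went the other way at 72 h, with 32.0, 40.8 and 27.9 CPM in DOX and 16.8, 17.7 and 19.1 CPM in V. It rose by 0.91 ± 0.14 (adjusted p = 0.000687), without overlap, after 32.3, 27.6 and 30.8 CPM in DOX and 23.7, 26.7 and 21.4 CPM in V at 16 h (0.33 ± 0.17, adjusted p = 0.147). Col3a1 and Col5a2 are neighbours on chromosome 1 (GRCm38), on opposite strands with 24.6 kb and no annotated coding gene between them. Col1a2, the other chain of collagen I, had a log2 fold change of -0.18 ± 0.08 at 72 h (adjusted p = 0.0794).

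In the interstitial network, 0 of 12 genes were called by edgeR at 16 h (against 32.3% of all genes), and 3 had an unadjusted p under 0.05. DESeq2 called 3, which were Fn1, Vcan and Fbn1, and limma voom called 0. At 72 h 4 rose and 1 fell (41.7% called, against 53.7% of all genes). The 4 were decorin, versican, elastin and fibrillin 1, and the 1 was a chain of collagen VI. Dcn encodes decorin, a small proteoglycan that binds collagen fibrils and TGF-beta, and had the highest level per kilobase of transcript of all matrix genes in V at 16 h (265.5 ± 42.6 CPM per kb, SD, n = 3). It read 572, 525 and 546 CPM in DOX and 420.1, 553 and 427 CPM in V at 16 h, where the groups overlapped. At 72 h it read 889, 1138 and 780.4 CPM in DOX and 337, 492 and 465 CPM in V, all DOX libraries above all V libraries, a rise of 1.12 ± 0.18 (SE, adjusted p = 0.00118). Its neighbour Lum, which encodes the related proteoglycan lumican 47.0 kb away on chromosome 10, had a log2 fold change of -0.04 at 72 h.

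Eln encodes elastin, the stretchable core of elastic fibres. Its level was 36.8, 23.9 and 40.1 CPM in DOX and 24.3, 31.1 and 23.1 CPM in V at 16 h, and 49.002, 50.98 and 44.8 CPM in DOX and 13.9, 22.9 and 21.7 CPM in V at 72 h. At 72 h the lowest DOX library was well above the highest V library, and Eln rose by 1.31 ± 0.17 (SE, adjusted p = 0.000422). Fbn1, the microfibril protein that scaffolds elastin, rose by 0.60 ± 0.11 at 72 h (adjusted p = 0.00202), and Fbln5, which links elastin to cells, did not pass the test. Fbn1 shares 2442 bases of exon with an annotated gene on the other strand, Gm9913, and as the strand setting of the counting is not given in the sources used here, reads of such antisense pairs cannot be told apart.

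Vcan encodes versican, a large proteoglycan of provisional matrix, which the protease Adamts1 can cleave. Its level was 48.4, 18.5 and 39.4 CPM in DOX and 17.3, 21.8 and 16.5 CPM in V at 16 h (0.93 ± 0.36, SE, adjusted p = 0.0675), with DOX 2 inside the range of V. At 72 h it read 23.4, 25.8 and 27.2 CPM in DOX, against 8.69, 6.57 and 8.67 CPM in V, a rise of 1.67 ± 0.13 (adjusted p = 3.01e-05) with no overlap. Fn1, which encodes fibronectin, the adhesive glycoprotein of provisional matrix, read 56.5, 51.5 and 73.3 CPM in DOX and 41.2, 46.4 and 37.0 CPM in V at 16 h. The groups did not overlap at 16 h, and the change of 0.54 ± 0.20 did not pass the test (adjusted p = 0.0591), but did when DOX and V alone were fitted (adjusted p = 0.0179). At 72 h Fn1 read 23.9, 56.6 and 26.4 CPM in DOX and 28.9, 29.4 and 34.8 CPM in V, so that DOX 2 lay above every V library and the other DOX libraries below. Without DOX 2 the Fn1 change at 72 h was -0.30 (adjusted p = 0.0478), against 0.20 ± 0.35 (adjusted p = 0.659) with it. Col6a2 fell by 0.31 ± 0.11 at 72 h (adjusted p = 0.0318), a call that did not hold without DOX 1, without the unnumbered DOX library or without V 1.

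Basement membrane genes that passed the test fell at both times, none rising. At 16 h 3 of 11 fell (27.3%, against 16.6% of all genes falling and 32.3% called either way), with a class median of -0.19. At 72 h 5 of 11 fell (45.5%, against 27.2% falling and 53.7% called either way), with a median of -0.26. Lama2 encodes the alpha chain of the main laminin around muscle cells, whose loss in mice and humans causes muscular dystrophy. Col15a1 encodes a collagen that anchors the basement membrane of muscle and microvessels to the interstitium. Lama2 and Col15a1 led the falls. The stretches of 250 bases before their annotated starts are shown because these genes had the largest falls of the class, with capitals marking a match to one of the motifs searched. The sequences here and further on are from RefSeq on GRCm38.p6, written 5′ to 3′ on the gene's strand, and were chosen after the values were seen. Lama2 is on chr10:27616943-27617192 on the minus strand, where the capitals are a CArG box, the element that binds serum response factor, with its outermost base 39 bases before the start. That start lies inside the gene's GENCODE extent and not at its outer end. The window of Col15a1 is chr4:47207762-47208011 on the plus strand.
Lama2: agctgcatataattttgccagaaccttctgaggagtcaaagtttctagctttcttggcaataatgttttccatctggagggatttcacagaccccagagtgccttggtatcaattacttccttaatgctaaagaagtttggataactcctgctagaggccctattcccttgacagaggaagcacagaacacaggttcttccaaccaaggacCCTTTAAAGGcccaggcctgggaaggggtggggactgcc
Col15a1: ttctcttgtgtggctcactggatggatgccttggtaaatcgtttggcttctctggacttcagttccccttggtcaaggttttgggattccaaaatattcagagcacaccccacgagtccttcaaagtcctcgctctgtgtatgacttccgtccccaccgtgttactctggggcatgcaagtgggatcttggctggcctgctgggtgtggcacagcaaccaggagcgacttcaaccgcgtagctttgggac

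Lama2 read 75.9, 71.8 and 73.7 CPM in DOX and 114, 116.5 and 121 CPM in V at 16 h, a fall of 0.67 ± 0.17 on the log2 scale (SE, adjusted p = 0.0122) that held whichever single DOX or V library was left out. At 72 h it read 48.7, 47.4 and 40.4 CPM in DOX and 92.2, 85.8 and 78.9 CPM in V, where it fell by 0.91 ± 0.10 (adjusted p = 9.31e-05). The groups stood wide apart at both times and the libraries within each were close. Part of its exons, 631 bases, is shared with the antisense gene Gm48084. Col15a1 read 19.9, 26.6 and 37.3 CPM in DOX and 64.3, 67.3 and 56.6 CPM in V at 16 h, and 8.90, 11.8 and 17.8 CPM in DOX and 29.1, 26.2 and 27.8 CPM in V at 72 h. It fell by 1.17 ± 0.39 at 16 h (adjusted p = 0.0391) and by 1.11 ± 0.23 at 72 h (adjusted p = 0.00541), without overlap at either time. The 16 h call held without DOX 3 and ended when any other single DOX or V library was left out, with changes between -1.43 and -0.97.

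Nid1 encodes nidogen 1, which ties laminin to collagen IV. Its level was 110.2, 91.5 and 98.7 CPM in DOX and 123, 128 and 127 CPM in V at 16 h, and 72.2, 59.2 and 76.3 CPM in DOX and 91.1, 97.3 and 90.9 CPM in V at 72 h. Every DOX library lay below every V library at both times, with falls of 0.33 ± 0.11 (SE, adjusted p = 0.0338) and 0.43 ± 0.10 (adjusted p = 0.00645). The first of these calls held without DOX 1 and was lost when any of the other DOX or V libraries was left out (-0.40 to -0.27). Hspg2, which encodes perlecan, the heparan sulfate proteoglycan of basement membranes, had a change of -0.33 at 16 h (adjusted p = 0.0934) and fell by 0.41 ± 0.11 at 72 h (adjusted p = 0.0132). Lama4, a laminin chain of vessels, fell by 0.43 ± 0.15 at 72 h (adjusted p = 0.0374), but its DOX and V libraries overlapped and with 1 library left out the call held only without the unnumbered DOX library. Col4a1 and Col4a2, the chains of the collagen IV network, are transcribed in opposite directions from starts 21 bases apart on chromosome 8, and had log2 fold changes of 0.37 (adjusted p = 0.147) and 0.33 (adjusted p = 0.246) at 72 h. Beside the falls of this class, the endothelial markers, a second source of basement membrane, summed to 1750 to 1895 CPM in DOX and 1834 to 1924 CPM in V at 16 h (0 of 16 rose, 2 fell), and to 2068 to 2622 CPM in DOX and 1670 to 1804 CPM in V at 72 h (9 of 16 rose, 2 fell). The pericyte and smooth muscle markers summed to 1132 to 1182 CPM in DOX and 1321 to 1329 CPM in V at 16 h (0 of 12 rose, 4 fell). At 72 h they summed to 806 to 906 CPM in DOX and 1017 to 1050.5 CPM in V (0 of 11 rose, 2 fell). The shares called were 33.3% and 18.2%, against 32.3% and 53.7% of all genes. Much of the lower sum at 72 h lay in Abcc9 (91.9, 97.4 and 103 CPM in DOX, 347, 266 and 267 CPM in V). Rgs5, the largest of these markers, read 563, 514 and 578 CPM in DOX and 486, 543 and 519 CPM in V. The sum therefore does not show a fall of these markers as a class at 72 h. The part of endothelial, pericyte and smooth muscle markers in the falls was not tested.

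**Figure D3:**
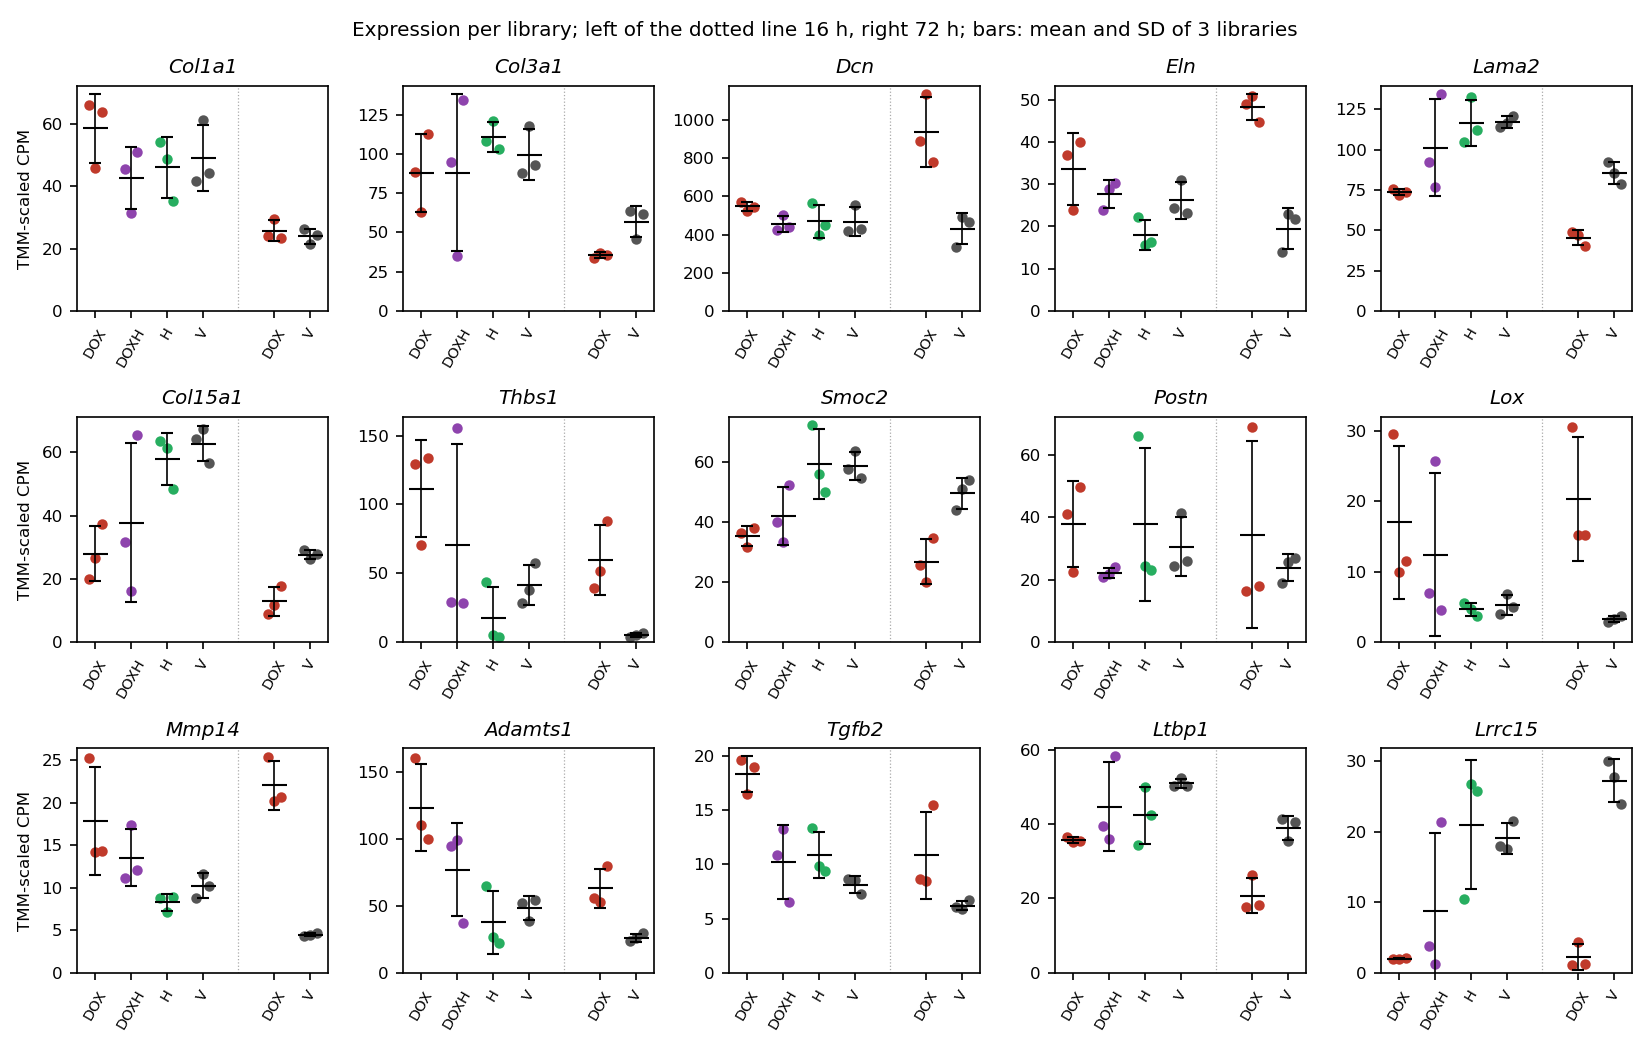
TMM-scaled CPM of 15 matrix genes in each library, 1 panel per gene, with DOX, DOXH, H and V at 16 h and DOX and V at 72 h from left to right; points are libraries, lines the mean and bars the SD of 3 libraries. Levels are comparable within a time only; Lama2, Col15a1, Smoc2 and Ltbp1 are lower and Mmp14 and Tgfb2 higher in the 3 DOX libraries than in the 3 V libraries at both times.

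Matricellular genes moved both ways. At 16 h, 1 of 7 rose and 2 fell (42.9% called, against 32.3% of all genes). At 72 h 1 of 6 rose and 2 fell (50%, against 53.7%). Thbs1 encodes thrombospondin 1, which can release TGF-beta from its latent form. Its level varied widely at 16 h, at 130, 70.8 and 134 CPM in DOX and 28.5, 37.8 and 57.1 CPM in V, and the change of 1.44 ± 0.90 did not pass the test (SE, adjusted p = 0.234) although these groups did not overlap, and passed when DOX and V alone were fitted. The 16 h fit shares its spread with DOXH, where Thbs1 read 28.8, 156 and 28.2 CPM, and with H, where it read 43.8, 5.15 and 3.59 CPM. After 72 h it stood at 39.3, 51.2 and 88.1 CPM in DOX and 3.73, 4.79 and 6.51 CPM in V, a rise of 3.57 ± 0.39 (adjusted p = 0.000738) and the largest rise of any matrix gene at either time. Per kilobase of transcript, Thbs1 ranked 20 of 49 matrix genes in DOX and 47 in V at 72 h.

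Sparcl1 encodes hevin, a secreted relative of SPARC. It read 153, 197 and 224 CPM in DOX and 280.2, 294 and 272 CPM in V at 16 h, and 119, 132 and 130.2 CPM in DOX and 209.9, 206 and 235 CPM in V at 72 h. It fell by 0.56 ± 0.18 (SE, adjusted p = 0.0347) and by 0.77 ± 0.09 (adjusted p = 0.000134), without overlap at either time. The 16 h call held without DOX 3 and not when any other DOX or V library was left out (-0.69 to -0.42). Smoc2, a SPARC-related calcium-binding matrix protein, read 36.2, 31.6 and 38.0 CPM in DOX and 57.6, 63.8 and 54.5 CPM in V at 16 h, and 25.8, 19.9 and 34.6 CPM in DOX and 43.9, 50.9 and 53.9 CPM in V at 72 h. It fell by 0.73 ± 0.17 (adjusted p = 0.00925) and 0.89 ± 0.19 (adjusted p = 0.00606), again with the groups apart at both times. Its relative Smoc1 read 7.84, 8.24 and 10.3 CPM in DOX and 3.86, 5.08 and 4.08 CPM in V at 16 h, a rise of 1.01 ± 0.22 (adjusted p = 0.00655). At 72 h Smoc1 read 9.26, 15.7 and 3.64 CPM in DOX and 5.48, 9.32 and 7.08 CPM in V, so the groups overlapped (adjusted p = 0.525). The calls of Smoc1 and Smoc2 at 16 h held with any single DOX or V library left out.

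Postn, which encodes periostin, a marker of activated fibroblasts in injured hearts, did not pass the test at either time. It read 41.2, 22.6 and 49.9 CPM in DOX and 24.4, 41.5 and 26.1 CPM in V at 16 h (0.30 ± 0.41, SE, adjusted p = 0.583). Later, at 72 h, it read 16.3, 69.1 and 18.1 CPM in DOX and 19.0, 25.5 and 27.1 CPM in V (0.53 ± 0.68, adjusted p = 0.545). One library, DOX 2, carried the 72 h mean: without it Postn had a change of -0.47 (adjusted p = 0.0261). Of other markers of activated fibroblasts, 0 of 7 rose and 2 fell at 16 h (28.6% called, against 32.3% of all genes). At 72 h 2 of 4 rose and 0 fell (50%, against 53.7%). Those that fell at 16 h were Ddah1 (-0.98 ± 0.20, adjusted p = 0.00561) and Tnfrsf12a (-1.63 ± 0.39, adjusted p = 0.0113). Tnfrsf12a rose at 72 h (1.92 ± 0.26, adjusted p = 0.00109), as did Thbs2, given below. Thbs4, a thrombospondin induced by cardiac overload, read 10.0, 5.08 and 7.06 CPM in DOX and 3.18, 7.80 and 2.93 CPM in V at 16 h, with overlap (0.66 ± 0.75, adjusted p = 0.518).

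Among enzymes and inhibitors, the calls were mostly rises. At 16 h 3 of 10 rose and 0 fell (30% called, against 32.3% of all genes, with 15.6% of all genes rising). At 72 h 6 rose and 1 fell (70% called, against 53.7% of all genes, with 26.5% of all genes rising). The class median was 0.61 at 72 h, against 0.01 for all genes. Mmp14 encodes a membrane-bound collagenase that activates the gelatinase encoded by Mmp2, and Adamts1 encodes a secreted protease that cleaves versican and aggrecan. The windows before Mmp14, Adamts1 and Vcan are shown because these genes had some of the largest rises in the list. Mmp14 is on chr14:54431348-54431597, plus strand, Adamts1 on chr16:85803114-85803363, minus strand, and Vcan on chr13:89742513-89742762, minus strand. The capitals before Adamts1 mark a TATA element that begins 32 bases before the start, and the other 2 windows hold no match to the motifs searched.
Mmp14: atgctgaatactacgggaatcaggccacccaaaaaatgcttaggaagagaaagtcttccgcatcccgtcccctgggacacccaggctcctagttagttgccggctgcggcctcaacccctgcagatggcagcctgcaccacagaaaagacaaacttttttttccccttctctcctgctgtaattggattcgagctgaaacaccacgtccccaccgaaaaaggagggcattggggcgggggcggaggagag
Adamts1: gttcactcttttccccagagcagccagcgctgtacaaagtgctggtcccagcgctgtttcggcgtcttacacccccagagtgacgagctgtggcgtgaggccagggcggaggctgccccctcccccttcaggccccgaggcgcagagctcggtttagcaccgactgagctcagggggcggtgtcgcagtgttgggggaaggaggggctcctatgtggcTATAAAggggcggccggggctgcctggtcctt
Vcan: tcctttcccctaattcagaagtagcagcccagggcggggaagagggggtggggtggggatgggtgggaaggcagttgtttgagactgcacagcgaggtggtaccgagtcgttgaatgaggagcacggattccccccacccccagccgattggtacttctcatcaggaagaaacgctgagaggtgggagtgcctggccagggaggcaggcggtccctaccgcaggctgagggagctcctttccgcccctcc

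Mmp14 read 25.3, 14.2 and 14.3 CPM in DOX and 8.77, 11.7 and 10.3 CPM in V at 16 h, a rise of 0.80 ± 0.24 (SE, adjusted p = 0.0266) that was lost without DOX 1 (0.48, adjusted p = 0.104), without V 1 (adjusted p = 0.0958) or without V 3 (adjusted p = 0.0725). At 72 h it read 25.4, 20.2 and 20.7 CPM in DOX, against 4.32, 4.47 and 4.68 CPM in V. The V libraries at 72 h were nearly alike and each DOX library was several times higher, a rise of 2.30 ± 0.13 with the smallest adjusted p of all matrix genes at that time (1.56e-05). Mmp2 read 76.3, 65.7 and 83.8 CPM in DOX and 38.8, 48.0 and 43.1 CPM in V at 16 h, and 37.9, 46.0 and 37.8 CPM in DOX and 23.5, 26.6 and 27.2 CPM in V at 72 h. It rose by 0.80 ± 0.20 (adjusted p = 0.0137) and 0.65 ± 0.11 (adjusted p = 0.000857), without overlap. The 16 h call was lost without V 1 alone (adjusted p = 0.0548). Adamts1 read 161, 110.1 and 99.6 CPM in DOX and 52.3, 38.4 and 54.5 CPM in V at 16 h, and 56.2, 53.3 and 79.6 CPM in DOX and 23.6, 25.9 and 29.6 CPM in V at 72 h. It rose by 1.35 ± 0.43 (adjusted p = 0.0348) and 1.26 ± 0.17 (adjusted p = 0.000532). The groups were apart at both times, and the 16 h call held without DOX 3 but not when another DOX or V library was left out (1.12 to 1.48).

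Lox encodes lysyl oxidase, which cross-links collagen and elastin. It read 29.5, 9.90 and 11.5 CPM in DOX and 3.95, 6.80 and 5.03 CPM in V at 16 h, where the change of 1.68 ± 0.61 did not pass the test (SE, adjusted p = 0.0534). The 72 h values were 30.5, 15.1 and 15.2 CPM in DOX and 2.80, 3.32 and 3.71 CPM in V. DOX 1 was the highest library at each time, and at 72 h the lowest DOX library was well above every V library, a rise of 2.63 ± 0.33 (adjusted p = 0.000522). Loxl1, the lysyl oxidase relative that maintains elastic fibres, read 26.99, 19.8 and 31.2 CPM in DOX and 22.6, 27.02 and 22.7 CPM in V at 16 h, and 24.3, 19.5 and 33.7 CPM in DOX and 13.3, 12.6 and 12.7 CPM in V at 72 h, where it rose by 1.00 ± 0.19 (adjusted p = 0.00266). Loxl2 did not pass the test at either time. Serpinh1 encodes HSP47, the endoplasmic reticulum chaperone of collagen, and was the 1 gene of the class to fall: at 72 h it read 59.1, 56.8 and 89.0 CPM in DOX and 117, 100.2 and 103 CPM in V, a fall of 0.64 ± 0.17 (adjusted p = 0.0149) that was lost without DOX 1 or without V 1. Of the inhibitors, Timp3 rose by 0.33 ± 0.11 at 72 h (adjusted p = 0.0259), which did not hold without DOX 1, DOX 2, V 1 or V 3. It shares 1733 bases of exon with Syn3 on the other strand. Timp2 did not pass the test at either time, and Timp4 read 65.0, 51.9 and 68.7 CPM in DOX and 46.1, 52.1 and 27.1 CPM in V at 72 h (0.57 ± 0.25, adjusted p = 0.0967).

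Of the 5 TGF-beta ligands and related genes, 1 rose and 2 fell at each time: Tgfb2 rose, and Ltbp1 and Lrrc15 fell. The share called was 60% at each time, against 32.3% of all genes at 16 h and 53.7% at 72 h. Tgfb2, a TGF-beta ligand, read 19.6, 16.5 and 19.0 CPM in DOX and 8.68, 8.52 and 7.22 CPM in V at 16 h, a rise of 1.17 ± 0.22 (SE) with the smallest adjusted p of all matrix genes at that time (0.00425), and it held with any single DOX or V library left out. At 72 h it read 8.62, 8.44 and 15.4 CPM in DOX and 6.07, 5.87 and 6.68 CPM in V (0.80 ± 0.26, adjusted p = 0.027). Its DOX libraries were above its V libraries at both times, but the 72 h call was lost without the unnumbered DOX library, without V 1 or without V 2 (0.46 to 0.95 over all single libraries left out), and in limma voom. Tgfb1 and Tgfb3, the other ligands, did not pass the test at either time. Ltbp1 encodes the latent TGF-beta binding protein that tethers the ligands to the matrix. It read 36.5, 35.1 and 35.5 CPM in DOX and 50.3, 52.3 and 50.1 CPM in V at 16 h, and 17.7, 26.2 and 18.3 CPM in DOX and 41.3, 35.4 and 40.4 CPM in V at 72 h. The libraries of a group were close at 16 h, and at 72 h DOX 2 stood above the other DOX libraries. Ltbp1 fell by 0.51 ± 0.17 (adjusted p = 0.0369) at 16 h and by 0.91 ± 0.15 (adjusted p = 0.00119) at 72 h. Leaving out any single DOX or V library ended the 16 h call, with the change between -0.53 and -0.49.

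Lrrc15 encodes a leucine-rich repeat membrane protein that TGF-beta induces in human mesenchymal cells and that marks myofibroblasts of tumours. It had the largest fall of any matrix gene at both times, and the 250 bases before its start, at chr16:30283255-30283504 on the minus strand, are shown for that reason. The capitals mark an AP-1 element, which reads as a match on both strands and begins 53 bases before the start.
Lrrc15: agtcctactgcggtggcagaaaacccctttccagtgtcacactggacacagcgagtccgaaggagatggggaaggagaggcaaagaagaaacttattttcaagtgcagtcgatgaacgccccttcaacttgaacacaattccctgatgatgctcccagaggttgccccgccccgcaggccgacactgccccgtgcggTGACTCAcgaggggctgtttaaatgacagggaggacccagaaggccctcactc

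The level of Lrrc15 was 1.91, 2.02 and 2.14 CPM in DOX and 18.03, 17.5 and 21.6 CPM in V at 16 h, a fall of 3.22 ± 0.78 on the log2 scale (SE, adjusted p = 0.012). The 72 h values were 1.14, 4.40 and 1.25 CPM in DOX and 29.9, 27.7 and 24.0 CPM in V, a fall of 3.60 ± 0.47 (adjusted p = 0.00143). All DOX libraries were far below all V libraries at both times, DOX 2 at 72 h less so than the others. Both calls held with any single DOX or V library left out. Per kilobase of transcript, Lrrc15 ranked 50 of 50 matrix genes in DOX and 41 in V at 16 h, and 49 of 49 in DOX and 30 in V at 72 h.

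Motifs were searched for in the 250 bases before the start. They were the AP-1 element TGANTCA, the SMAD element CAGACA, the TATA element TATAAA and the CArG box. TATAAA was searched for on the gene's strand alone, and the others on both strands. Of the 50 measured matrix genes, 33 matched the promoter table by symbol, with 38 windows. TGANTCA was in 2 of these windows (5.26%, against 6.75% of all 32851 windows), CAGACA in 12 (31.6%, against 17.1%), TATAAA in 4 (10.5%, against 7.59%) and the CArG box in 1 (2.63%, against 1.47%). The matches describe letters and not binding.

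Of the 12 matrix genes called at 16 h, 11 were called in the same direction at 72 h and 0 in the opposite one (91.7%, against 54.7% of the 2580 called genes that were also tested at 72 h). Of the 25 called at 72 h, 11 had been called in that direction at 16 h (44%, against 35.7% of 3958 genes). The exception among the 12 was Smoc1. The vehicle libraries differ between the times. The change with doxorubicin differed between 72 h and 16 h for 5 of 49 matrix genes (10.2%, against 26.5% of 7407 genes, with 12.6% higher and 13.8% lower), and in all 5 it was higher at 72 h: Mmp14 by 1.49 ± 0.31 (SE, adjusted p = 0.00294), Dcn by 0.88 ± 0.23 (adjusted p = 0.0118), Eln by 0.94 ± 0.29 (adjusted p = 0.0248), Loxl1 by 0.89 ± 0.28 (adjusted p = 0.0307) and Timp4 by 0.83 ± 0.27 (adjusted p = 0.0366). Timp4, the TIMP most restricted to heart, read 51.2, 46.1 and 44.5 CPM in DOX and 65.6, 49.4 and 55.6 CPM in V at 16 h, with overlap at both times, so that neither change passed on its own. Mmp14 and Dcn held with any of the 12 DOX and V libraries left out, Eln in 7 of 12 cases, Loxl1 in 6 and Timp4 in 5. The 5 calls became 2 without DOX 2 of 16 h, and 3 without V 2 of 16 h or without DOX 1, the unnumbered DOX library, V 1 or V 3 of 72 h. For the genes called at 72 h alone, the difference between times was not past the threshold for Thbs1 (2.12 ± 1.20, adjusted p = 0.206), Lox (0.94 ± 0.79, adjusted p = 0.397) or Vcan (0.73 ± 0.45, adjusted p = 0.247), so their changes are not shown to be later than those at 16 h. Lama2 (-0.25 ± 0.21, adjusted p = 0.396) and Lrrc15 (-0.39 ± 1.05, adjusted p = 0.814) also had no detectable difference between times.

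**Figure D4:**
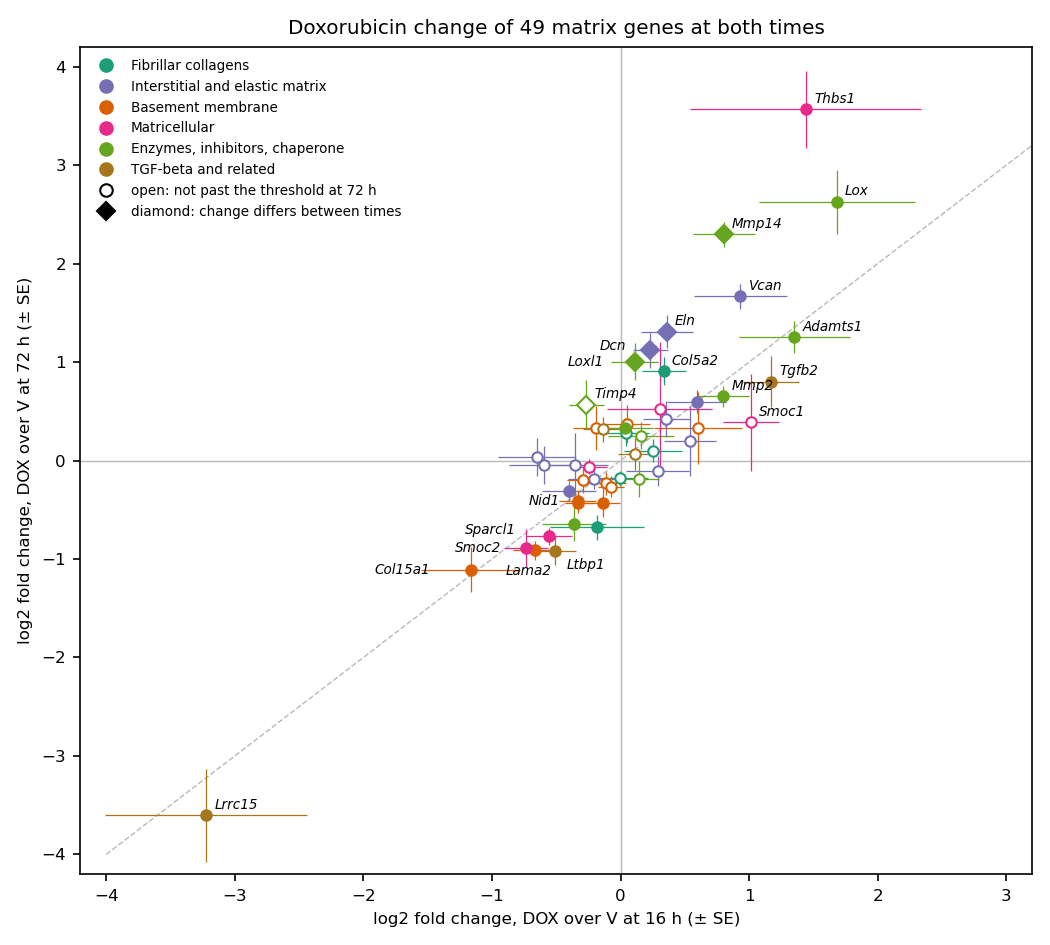
Log2 fold change of DOX against V at 16 h (horizontal axis) and at 72 h (vertical axis) for the 49 matrix genes measured at both times, with bars of 1 SE; open symbols did not pass the test at 72 h, and diamonds are the 5 genes whose change differed between the times. Lrrc15 stands at the lower left, Lox, Thbs1 and Mmp14 at the upper right, and the 5 diamonds lie above the diagonal.

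Hesperitin alone gave 0 of 50 calls in H against V by edgeR, against 0% of all genes tested. At an unadjusted p under 0.05 there were 1 matrix gene and 664 genes, DESeq2 called 0 matrix genes of 13 genes, and limma voom called none of either. The groups did not overlap for 4 of 50 matrix genes (8%, against 15.6% of all genes). The gene with the smallest p, Eln, read 22.1, 15.6 and 16.4 CPM in H and 24.3, 31.1 and 23.1 CPM in V (-0.54 ± 0.20, SE, adjusted p = 0.737). Tgfb2 read 13.3, 9.87 and 9.37 CPM in H and 8.68, 8.52 and 7.22 CPM in V (0.41 ± 0.22, adjusted p = 0.812). Timp2 read 83.4, 77.8 and 67.02 CPM in H and 83.7, 104 and 85.01 CPM in V (-0.26 ± 0.15, adjusted p = 0.842). The libraries of H and V did not overlap for these 3 genes. Col1a1 read 54.3, 48.8 and 35.3 CPM in H, and Col3a1 109, 121 and 103 CPM, both overlapping V (log2 fold changes -0.10 and 0.16). One library stood apart: H 1 had 66.2 CPM of Postn, against 24.4 and 23.0 CPM in the other H libraries. It also had 21.9 CPM of Thbs4, against 2.97 and 2.94 CPM, and 43.8 CPM of Thbs1, against 5.15 and 3.59 CPM. Without H 1, edgeR called 47 genes and 0 matrix genes, and Postn had a change of -0.38, against 0.30 ± 0.40 with it.

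With hesperitin added to doxorubicin, edgeR called 0 of 50 matrix genes in DOXH against DOX, against 0% of all genes tested. At an unadjusted p under 0.05 there were 12 matrix genes and 1958 genes, limma voom called 0 matrix genes, and DESeq2 called 1 matrix gene of 392 genes. DOXH and DOX did not overlap for 11 of 50 matrix genes (22%, against 18.8% of all genes). The 3 DOXH libraries differed: of the 12 genes called in DOX against V, 5 lay nearer the V mean than the DOX mean in DOXH 1, 1 in DOXH 2 and 12 in DOXH 3 (of all 3352 genes called, 45.5%, 16.5% and 90.8%). Lrrc15 shows the spread, with 3.83, 1.29 and 21.4 CPM in DOXH, against 1.91, 2.02 and 2.14 CPM in DOX and 18.03, 17.5 and 21.6 CPM in V. Thbs1 and Lox were high in DOXH 2 alone, Lox at 6.98, 25.7 and 4.56 CPM.

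The smallest p in DOXH against DOX was that of Smoc1, which read 4.40, 4.28 and 2.70 CPM in DOXH, against 7.84, 8.24 and 10.3 CPM in DOX (-1.21 ± 0.22, SE, adjusted p = 0.13). Tgfb2 read 10.9, 13.3 and 6.54 CPM in DOXH, against 19.6, 16.5 and 19.0 CPM in DOX (-0.84 ± 0.22, adjusted p = 0.131), and was the gene called by DESeq2 (-0.83, adjusted p = 0.0186). Each of these had all 3 DOXH libraries below all 3 DOX libraries. Tgfb3 read 9.47, 10.7 and 11.2 CPM in DOXH and 14.2, 13.2 and 15.4 CPM in DOX (-0.45 ± 0.14, adjusted p = 0.161). Col1a1 read 45.5, 31.5 and 51.04 CPM in DOXH (-0.46 ± 0.23 against DOX, adjusted p = 0.3), Fn1 39.2, 50.02 and 37.7 CPM (-0.52 ± 0.20, adjusted p = 0.209) and Postn 20.9, 21.7 and 24.0 CPM (-0.77 ± 0.41, adjusted p = 0.334). Col3a1 spread over 94.9, 35.1 and 134 CPM in DOXH, on both sides of DOX. Without DOXH 2, edgeR called 1554 genes and 5 matrix genes: Lama2 (0.62, adjusted p = 0.0167), Lrrc15 (2.62, adjusted p = 0.0412) and Sparcl1 (0.48, adjusted p = 0.0315) were higher, and Smoc1 (-1.30, adjusted p = 0.0104) and Tgfb2 (-1.07, adjusted p = 0.0123) lower, in DOXH than in DOX.

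Against vehicle, DOXH gave 0 of 50 calls by edgeR (0% of all genes; 4 matrix genes and 1749 genes at an unadjusted p under 0.05), and neither DESeq2 nor limma voom called a matrix gene. The smallest p was that of Smoc2, at 40.1, 33.3 and 52.3 CPM in DOXH and 57.6, 63.8 and 54.5 CPM in V (-0.49 ± 0.17, SE, adjusted p = 0.229). Lum read 34.9, 20.4 and 42.1 CPM in DOXH and 45.4, 65.2 and 48.8 CPM in V (-0.71 ± 0.26, adjusted p = 0.248), and Col8a1, a short-chain collagen of vessels, 13.2, 11.03 and 14.2 CPM in DOXH and 20.3, 21.8 and 23.1 CPM in V (-0.76 ± 0.28, adjusted p = 0.248). All 3 had every DOXH library below every V library. Without DOXH 3, 1674 genes and 9 matrix genes were called, 8 of them lower in DOXH than in V, with Lrrc15 (-2.86, adjusted p = 0.00526) and Lama2 (-0.47, adjusted p = 0.0149) among them, and Mmp2 higher (0.49, adjusted p = 0.0482). Whether the doxorubicin change differed with hesperitin was tested as an interaction, which called 0 of 50 matrix genes by edgeR (0% of all genes; 5 matrix genes and 1228 genes at an unadjusted p under 0.05) and 1 by DESeq2. That gene was Tgfb2, with an interaction of -1.25 ± 0.31 in edgeR (adjusted p = 0.329), and an adjusted p of 0.0445 in DESeq2 and of 0.0352 in edgeR without DOXH 2. The interaction was -0.82 ± 0.31 for Smoc1 (adjusted p = 0.379) and 0.59 ± 0.24 for Ltbp1 (adjusted p = 0.393), with Ltbp1 at 39.5, 36.1 and 58.3 CPM in DOXH and 34.4, 49.998 and 42.5 CPM in H.

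The machinery around these proteins was described from further lists. Shares called are given beside those of all genes tested, 32.3% at 16 h and 53.7% at 72 h. Of 22 genes of collagen synthesis and secretion measured at 16 h, 2 rose and 4 fell with doxorubicin (27.3%). Of 19 at 72 h, 6 rose and 3 fell (47.4%), so both shares were below those of all genes. Plod2, the lysyl hydroxylase of collagen telopeptides, rose by 0.59 ± 0.09 at 16 h (SE, adjusted p = 0.00244), while its relative Plod1 fell by 0.87 ± 0.14 (adjusted p = 0.00306). Between the times, the change of 2 of 19 genes of this list was higher and of 2 lower at 72 h (21.1%, against 26.5% of all genes). Plod2 was among the lower (-0.51 ± 0.17, adjusted p = 0.0348). At 72 h Ppib, a prolyl isomerase of collagen folding, rose by 0.43 ± 0.09 (adjusted p = 0.00335), and Sec23a, a coat protein of the vesicles that carry procollagen, fell by 0.43 ± 0.08 (adjusted p = 0.00171). Of other matrix proteases and inhibitors, 6 of 26 rose and 4 fell at 16 h (38.5%). At 72 h 10 of 21 rose and 5 fell (71.4%). Mmp3, the protease stromelysin 1, rose by 2.52 ± 0.59 at 16 h (adjusted p = 0.0104) and by 4.32 ± 0.24 at 72 h (adjusted p = 2.14e-05), and Serpine2, an inhibitor of serine proteases, rose by 1.07 ± 0.15 at 16 h (adjusted p = 0.00244). Htra1, a secreted serine protease, fell by 0.61 ± 0.13 (adjusted p = 0.00603) and 1.42 ± 0.14 (adjusted p = 9.01e-05). Of other matrix genes, 4 of 38 rose and 3 fell at 16 h (18.4%), and 11 of 32 rose and 6 fell at 72 h (53.1%). Among those called at 72 h were Thbs2 (1.42 ± 0.15, adjusted p = 0.000135), which encodes thrombospondin 2, and Ogn (-1.18 ± 0.13, adjusted p = 0.000155), which encodes osteoglycin.

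TGF-beta receptors, SMADs and response genes gave 11 rises and 0 falls of 26 at 16 h (42.3% called, against 32.3% of all genes). At 72 h they gave 6 rises and 2 falls of 22 (36.4%, against 53.7%). Lrrc32, which displays latent TGF-beta on cell surfaces, rose by 1.87 ± 0.29 at 16 h (SE, adjusted p = 0.00269), and Smad3, a transcription factor that TGF-beta receptors activate, by 0.69 ± 0.16 (adjusted p = 0.00925). At 72 h Ccn2, the connective tissue growth factor that TGF-beta induces, rose by 2.62 ± 0.18 (adjusted p = 3.53e-05) and the receptor gene Tgfbr2 by 0.80 ± 0.14 (adjusted p = 0.00153). The change with doxorubicin differed between 72 h and 16 h for 8 of 22 genes of this list (36.4%, against 26.5% of all genes). It was higher at 72 h for 1 and lower for 7, with Lrrc32 among the lower (-1.58 ± 0.37, adjusted p = 0.00612). Of matrix receptors, 4 of 20 rose and 3 fell at 16 h (35%), and 8 of 18 rose and 5 fell at 72 h (72.2%). Itgav, an integrin chain that binds fibronectin and latent TGF-beta, rose by 0.62 ± 0.10 at 16 h (adjusted p = 0.00269). Itga5, the fibronectin receptor chain, and Sdc4, a heparan sulfate proteoglycan of cell adhesions, rose by 1.00 ± 0.08 (adjusted p = 3.54e-05) and 1.26 ± 0.14 (adjusted p = 0.000132) at 72 h. Between the times, the change of 5 of 18 receptors was higher and of 4 lower at 72 h (50%, against 26.5% of all genes). Itga5 was among the higher (1.06 ± 0.17, adjusted p = 0.000802) and Itgav among the lower (-0.80 ± 0.12, adjusted p = 0.000625). At 72 h the macrophage markers summed to 466 to 569 CPM in DOX and 282 to 363 CPM in V (7 of 10 rose, 1 fell) and the neutrophil markers to 26.4 to 133 CPM in DOX and 0.957 to 1.98 CPM in V (3 of 3 rose). Their part in the rises of proteases and receptors was not tested.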

How the data were processed

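Poly(A)-selected mRNA of mouse hearts was sequenced as single-end reads, per the labels and the design text. The authors deposited expected counts per gene, estimated read numbers that need not be whole, in 1 table per time, made with RSEM on GRCm38 (mm10) per the submitters' processing notes, which also name DESeq2. The sources used here do not give their annotation, strand setting or filter on genes. At 72 h, 6 columns that match no label were not used, so the hesperitin groups of that time were not analysed here, and 1 DOX column carries no label's number (the unnumbered library).

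Rounded values were scaled by TMM, and filterByExpr kept 10393 genes at 16 h, 7703 at 72 h and 7407 for both times. Groups, taken from the labels, were compared with edgeR 4.0.16 (R 4.3.3), robust quasi-likelihood fit, with 8, 4 and 12 residual degrees of freedom. Log2 CPM used a prior count of 2, and each SE is the size of the change over the square root of F. Alternatives were other scaling factors and filters, DESeq2 1.42.0, limma voom (limma 3.58.1), a replicate block, only the groups compared and each library left out. Scripts were tested on simulated data. No libraries agreed within sampling noise. The matrix genes and all lists were chosen with earlier results of these data known. Values per library were given for the largest rises and falls past the threshold (up to 6 each), the 2 smallest p per class at each time, the 3 smallest p of comparisons without calls, and Col1a1, Col3a1, Fn1 and Postn. Other genes named were chosen after their values were seen. Gene positions are from GENCODE M21.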

Additional observations from a re-analysis of the deposited data

Results flagged for a closer look

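The change with doxorubicin differed between 72 h and 16 h by a test of the difference itself for 5 matrix genes, and in each it was higher at 72 h. The difference of log2 fold changes was 1.49 for Mmp14, 0.94 for Eln, 0.89 for Loxl1, 0.88 for Dcn and 0.83 for Timp4 (edgeR, adjusted p = 0.00294, 0.0248, 0.0307, 0.0118 and 0.0366 in this order). The vehicle libraries of the 2 times are separate, and the level of Timp4 in V ranged over 27.1 to 52.1 CPM at 72 h.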

How the results depend on the processing

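Calls with each library left out were 1928 to 2409 genes and 5 to 11 matrix genes in DOX against V at 16 h, 3397 to 4022 and 20 to 28 at 72 h, 1495 to 1844 and 2 to 5 for the difference between times, 0 to 47 and 0 in H against V, 0 to 1554 and 0 to 5 in DOXH against DOX, 0 to 1674 and 0 to 9 in DOXH against V, and 0 to 254 and 0 to 1 for the interaction. With only the groups compared, 20 of 50 matrix genes and 4571 of 10393 genes were called in DOX against V at 16 h. In that setting 1 gene each was called in DOXH against DOX and in DOXH against V. DESeq2 called 13 genes in H against V, 392 genes and 1 matrix gene in DOXH against DOX, 131 genes in DOXH against V, and 53 genes and 1 matrix gene for the interaction. The cause was not tested. Replicate numbers did not pair the libraries at 16 h. There 4 of 18 same-numbered pairs had deviations correlated over 0.1 (-0.415 to 0.25), as had 9 of 36 differently numbered pairs (-0.427 to 0.526). At 72 h the 2 same-numbered pairs that could be formed had 0.197 and 0.245, and the 7 differently numbered pairs -0.243 to 0.0977. These are too few pairs to decide whether the numbers pair the libraries at 72 h. A replicate block gave 11 matrix genes at 16 h (Nid1 lost). The unnumbered DOX library and V 3 of 72 h, which have no same-numbered partner, were left out of the block fits. Only DOX 1, DOX 2, V 1 and V 2 of 72 h remained, so the block and the fewer libraries cannot be told apart there. At 72 h 28 matrix genes were called, 22 of them shared, with Col6a2, Tgfb2 and Lrrc15 lost (Lrrc15 at -3.48, edgeR adjusted p = 0.134). For the difference between times, 1206 genes and 3 matrix genes were called (Loxl1 and Timp4 lost).

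Directions that turned belonged to genes that had not passed. With each library left out, Col3a1 ranged over -0.398 to 0.0142 in DOX against V at 16 h, -0.432 to 0.382 in DOXH against DOX, -0.612 to 0.204 in DOXH against V and -0.587 to 0.226 in the interaction. In DOXH against DOX its change of 0.00392 became -0.000265 with upper quartile factors, -0.157 in voom and -0.0386 with the block. Likewise Col1a1 ranged over -0.231 to 0.0976 in H against V and -0.0159 to 0.166 at 72 h, Fn1 over -0.11 to 0.114 in DOXH against V and -0.303 to 0.419 at 72 h, and Postn over -0.376 to 0.586 in H against V, -0.474 to 0.866 at 72 h and -0.794 to 0.544 between times (-0.0722 in voom). Of the values of named genes under all alternatives, 984 kept direction and side of the threshold, 52 lost it, 13 gained it and 22 turned. With 3 libraries per group and 9255651 to 20587578 counts each, a change that missed the threshold is not shown to be absent.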

Other observations

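Per kilobase of the longest coding transcript, the matrix genes with the highest level in V hearts at 16 h after Dcn were Sparcl1 at 102 ± 3.95, Sparc at 83.95 ± 5.13, Timp3 at 79.4 ± 3.29 and Bgn at 61.7 ± 11.1 CPM per kb (SD, n = 3). Lox at 1.11 ± 0.30 and Smoc1 at 1.24 ± 0.19 CPM per kb were lowest.

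Summed within a library, the 12 interstitial genes reached 1164 to 1617 CPM in DOX and 661 to 865 CPM in V at 72 h, most of it Dcn. The 10 enzymes, inhibitors and the chaperone reached 734 to 773 CPM in DOX and 580 to 619 CPM in V, and the 5 TGF-beta genes 56.6 to 71.4 CPM in DOX and 95.6 to 99.4 CPM in V. The 5 fibrillar collagens summed to 147 to 179 CPM in DOX and 151 to 175 CPM in V at 72 h, where the groups overlapped.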
